A study of Mus musculus with 8 samples.

Results

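The 4 Hox clusters of the mouse were examined for H3K27ac, the acetylated form of lysine 27 on histone H3 that is found at promoters and enhancers in use, in the pancreatic acinar line 266-6. Members were all deposited peaks that overlapped 1 of 4 windows of build mm9, drawn around HoxA on chromosome 6 from 52090000 to 52225000, HoxB on chromosome 11 from 96040000 to 96240000, HoxC on chromosome 15 from 102740000 to 102870000 and HoxD on chromosome 2 from 74490000 to 74615000. Only 9 of 195577 peaks met this rule, and after merging of overlapping peaks across libraries they formed 2 of 33920 regions. The windows stand for 38 Hox genes, of which 10 belong to HoxA, 10 to HoxB, 9 to HoxC and 9 to HoxD. No gene annotation of build mm9 was used here, so the windows were taken as given, and no peak was tied to a gene.

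There were 4 groups of 2 libraries. Control cells received a non-targeting siRNA and 0.1% BSA as vehicle, EGF cells the same siRNA and 40 ng/ml EGF, a ligand of the EGF receptor. Knockdown cells received siRNA against Arid1a, which encodes a DNA-binding subunit of SWI/SNF chromatin remodellers, and vehicle, and the last group received that siRNA and EGF. All 4 groups were transfected with 25 nM siRNA for 48 h, kept without serum overnight and exposed to EGF or vehicle for 8 h. All libraries came from this 1 cell line, the siRNAs are named by the human symbol in the labels, and the level of Arid1a and markers of acinar cells were not analysed here. The duplicates are not said to be separate cultures, and any p-value below reflects only how these 8 samples scatter, which may be technical.

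Hox genes encode homeodomain transcription factors that give cells their position along the body axis. They stand in clusters in which gene order follows the order of expression along that axis, from the anterior genes of low number to the posterior genes of high number. Polycomb complexes, which methylate the same lysine that H3K27ac occupies, are known to keep Hox clusters silent outside the tissues that use them, and Trithorax proteins oppose them. In RefSeq's annotation of GRCm38, in which all 38 members were found, HoxA runs along its chromosome from Hoxa2 to Hoxa13, whereas HoxB, HoxC and HoxD run from Hoxb13, Hoxc13 and Hoxd13 to Hoxb1, Hoxc4 and Hoxd1.

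The clusters also carry microRNA genes, whose mature sequences show how the 4 loci resemble each other. They are printed 5′ to 3′ from RefSeq's tables of GRCm38.p6, with the seed (bases 2 to 8) in capitals. The first pair comes from HoxB and HoxD on chromosomes 11 and 2, the second from HoxB, HoxC and HoxA on chromosomes 11, 15 and 6, and the last from HoxC.
mmu-miR-10a-5p: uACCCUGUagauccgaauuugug
mmu-miR-10b-5p: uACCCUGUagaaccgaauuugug
mmu-miR-196a-5p: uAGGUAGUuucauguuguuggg
mmu-miR-196b-5p: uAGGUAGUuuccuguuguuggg
mmu-miR-615-3p: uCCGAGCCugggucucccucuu
The miR-10 pair shared its seed and differed at 1 base, U12A counted from the 5′ end, and the miR-196 pair shared its seed and differed at 1 base, A12C. The same mature miR-196a-5p is made from a gene in HoxB and a gene in HoxC. These genes were examined only as contents of the windows, since peaks do not measure microRNAs.

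Of the 38 members, 22 had a promoter in RefSeq's table of GRCm38.p6, with 24 start sites between them (9 genes of HoxA, 3 of HoxB, 1 of HoxC and 9 of HoxD). The 250 bases before these starts held a median of 12.5 CG dinucleotides, against 6 over all 32851 promoters of the table, and a median of 58.6% G and C against 52.4%. CG-rich promoters are the kind at which both H3K27ac and Polycomb marks are commonly found. The count ranged from 2 at one start of Hoxd11 to 35 at Hoxa13, so the promoters of the family differed widely. The promoter with the most CG dinucleotides in each cluster is printed, with each CG in capitals, from the strand of the gene (minus for Hoxa13, plus for the others).
Hoxa13, chromosome 6: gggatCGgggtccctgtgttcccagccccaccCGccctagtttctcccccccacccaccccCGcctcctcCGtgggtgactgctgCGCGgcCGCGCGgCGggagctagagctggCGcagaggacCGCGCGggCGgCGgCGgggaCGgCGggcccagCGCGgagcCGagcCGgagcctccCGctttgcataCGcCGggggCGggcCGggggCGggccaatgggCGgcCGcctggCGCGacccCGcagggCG
Hoxb4, chromosome 11: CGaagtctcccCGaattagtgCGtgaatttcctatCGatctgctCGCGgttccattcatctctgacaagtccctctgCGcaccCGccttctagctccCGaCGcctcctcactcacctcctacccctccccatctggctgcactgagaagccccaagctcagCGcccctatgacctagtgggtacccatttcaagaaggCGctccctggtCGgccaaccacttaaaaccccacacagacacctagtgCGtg
Hoxc4, chromosome 15: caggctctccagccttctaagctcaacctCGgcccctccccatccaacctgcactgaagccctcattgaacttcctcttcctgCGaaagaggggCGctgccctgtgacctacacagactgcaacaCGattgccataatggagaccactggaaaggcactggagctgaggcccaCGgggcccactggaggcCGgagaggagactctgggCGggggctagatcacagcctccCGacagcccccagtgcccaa
Hoxd13, chromosome 2: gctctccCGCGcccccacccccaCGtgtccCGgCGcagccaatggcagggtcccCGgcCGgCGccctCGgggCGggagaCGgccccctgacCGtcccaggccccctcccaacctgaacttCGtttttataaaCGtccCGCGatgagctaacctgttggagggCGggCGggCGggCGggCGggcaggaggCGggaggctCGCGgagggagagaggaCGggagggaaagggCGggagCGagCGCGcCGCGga
These held 35, 14, 8 and 31 CG dinucleotides. The motif TGATNNAT, bound by Hox proteins together with Pbx cofactors, was searched on both strands and occurred in 4 of the 24 member promoters (16.7%, those of Hoxa2, Hoxb8, Hoxb1 and Hoxd11) and in 7.68% of all promoters. A match is no evidence of binding. Their positions in GRCm38 were not carried over to the build of the peaks.

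The library lists held 22030 to 28281 peaks that covered 33.9 to 48.7 Mb. Lists of EGF libraries covered 33.9 to 36.8 Mb. Those of vehicle libraries covered 34.3 and 47.2 Mb in control and 46.3 and 48.7 Mb in knockdown cells. Read depth is unknown for all 8 libraries. The lists hold only peaks with a −log10 q-value of at least 1.002, so a window without a peak may still carry acetylation below that limit. Peak numbers ran without a gap in every list.

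HoxB and HoxC had no peak in any of the 8 libraries. This holds for the whole HoxB window of 200 kb, with Hoxb1 to Hoxb9 and Hoxb13, and for the HoxC window of 130 kb, with Hoxc4 to Hoxc13. HoxA had a peak in 1 library, the second knockdown library, and none in the other 7. HoxD had 1 peak in each of the 8 libraries, always at the same place. Of 118 consecutive bins of 5 kb that tile the windows, 1 bin in HoxA and 1 in HoxD contained a peak.

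**Figure D1:**
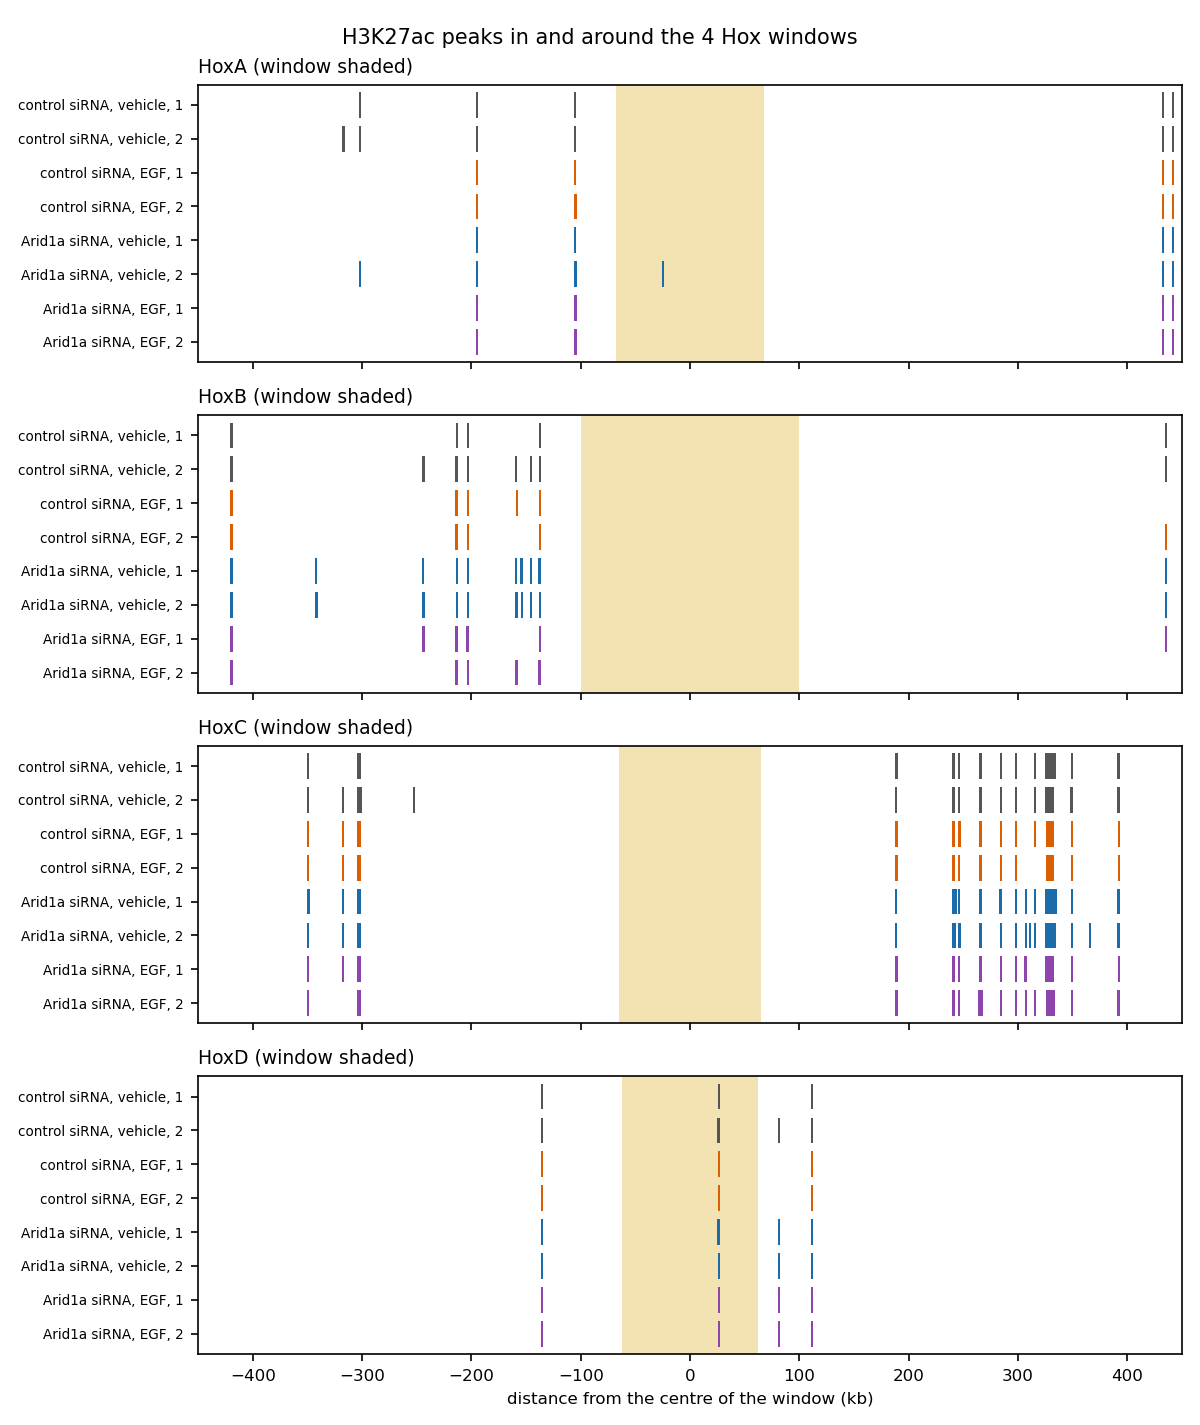
Peaks of each library (rows, coloured by group) within 450 kb of the centre of each Hox window (x axis, kb; window shaded, peaks drawn at least 2 kb wide). HoxB and HoxC have no peak in the shaded window, HoxA has 1 in a single library, and HoxD has 1 in all 8.

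Windows of this length without a peak are common in the genome. Of all consecutive tiles of 200 kb, the length of the HoxB window, 43.4% had no peak in any library. For tiles of 130 kb, the length of the HoxC window, the share was 50.7%. At most 1 region, as in HoxA and HoxD, was found in 65.0% of tiles of 135 kb and 66.4% of tiles of 125 kb. Tiles include stretches with few genes, whereas the windows are dense in genes, and tiles were not sorted by gene content. They were laid from the first base of each chromosome, and unsequenced stretches, where no peak can be called, were not taken out. Any such stretches raise the shares of tiles without a peak.

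The peak-free stretches reached well beyond the HoxA and HoxB windows on the high-coordinate side, and beyond the HoxC window on both sides. Around HoxB the stretch measured 571 kb, from the end of a region present in all 8 libraries, 36.8 kb below the window, to a region present in 6 libraries, 335 kb above it. Of 33874 gaps between neighbouring regions, 2.16% were longer, and the median gap was 17.4 kb. Such shares count each gap once, and a window without a peak can lie only in a gap at least as long. A low share was therefore set in part by the length of the window, for HoxB and HoxC alike. Around HoxC the stretch measured 441 kb, with 2.79% of gaps longer. Its lower border was a region with a peak in the second control library alone, 188 kb below the window, and its upper border a region in all 8 libraries, 123 kb above it. In HoxA the single peak split a span of 536 kb into 78.9 kb on the Hoxa2 side and 456 kb on the Hoxa13 side. HoxD lay in the shortest span, 215 kb, which its peak split into 160 kb on the Hoxd13 side and 52.8 kb on the Hoxd1 side.

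**Figure D2:**
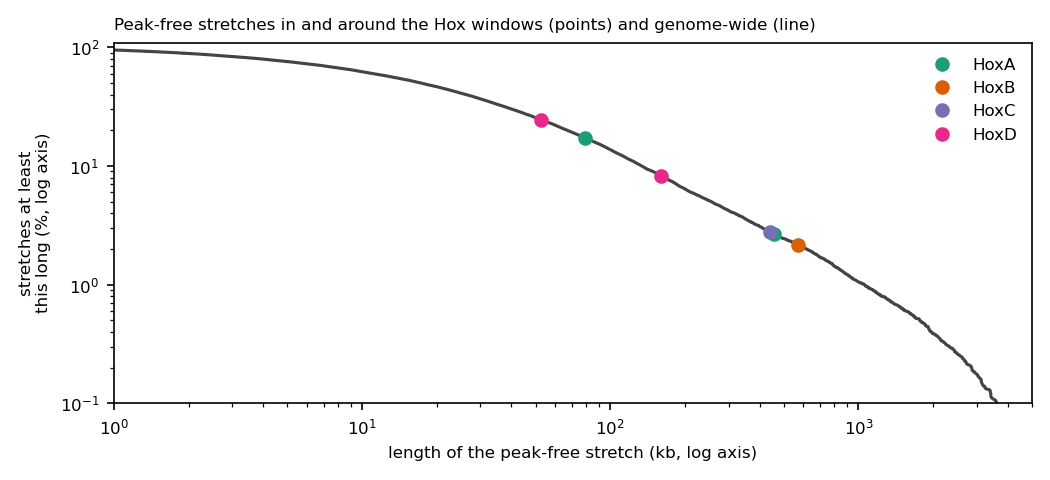
Share of all peak-free stretches between neighbouring regions that are at least as long as the value on the x axis (line, both axes logarithmic), with the stretches in and around the 4 Hox windows as points. HoxB (571 kb) and HoxC (441 kb) lie in the long tail, while the 2 stretches of HoxD (160 and 52.8 kb) are shorter. A gap that holds a whole window without a peak is long by construction.

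The 200 kb beside the windows were acetylated on at least 1 side in each case. Below HoxB, on the Hoxb13 side, lay 7 regions, 3 of them in all 8 libraries, covering 3710 to 8577 bp per library, while the 200 kb above it had none. Above HoxC, on the Hoxc4 side, lay 4 regions, all present in 8 libraries and covering 5412 to 8052 bp, while the 200 kb below it held 406 bp in 1 library. Below HoxA, on the Hoxa2 side, 2 regions covered 2238 to 3058 bp, and none lay above it. HoxD had 1 region below, covering 384 to 1152 bp, and 2 above, covering 801 to 2726 bp.

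The HoxD peak marked a region on chromosome 2 from 74577461 to 74579927. It lay on the high-coordinate side of the window's middle, in the direction of the anterior gene Hoxd1, and the low-coordinate side, in the direction of Hoxd13, had no peak in any library. A stretch of 989 bp, from 74578289 to 74579277, was covered in all 8 libraries and stood 71.0% of the way along the window. The end of the peak lay within 140 bp in 7 libraries, and 650 bp with the first knockdown library included. Its start varied over 828 bp.

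**Figure D3:**
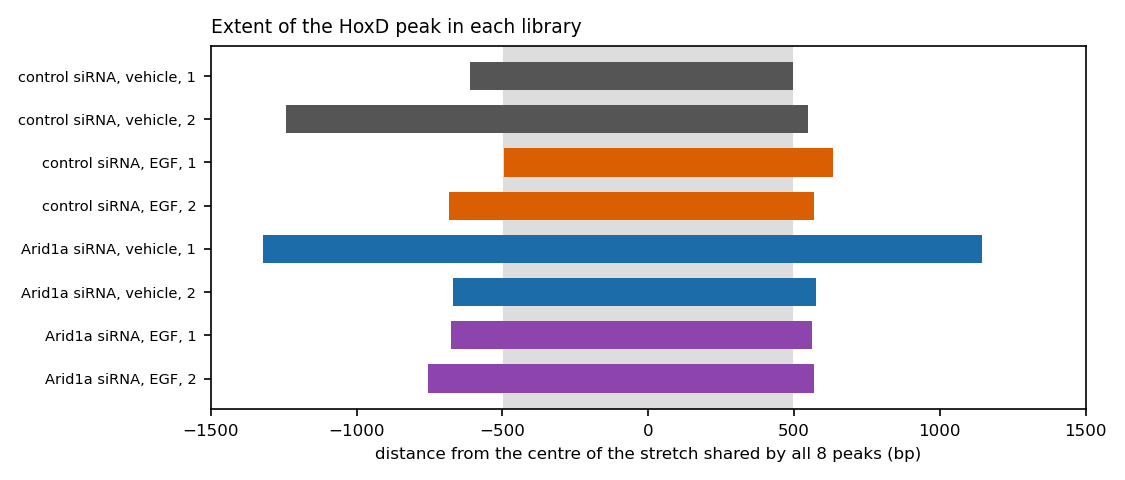
Extent of the HoxD peak in each library (bars, coloured by group), as distance in bp from the centre of the stretch shared by all 8 peaks (grey band, 989 bp). The first knockdown library (2467 bp) and the second control library (1790 bp) have the widest peaks.

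The HoxD peak was of ordinary width and of low to middling rank. It covered 1107 and 1790 bp in the control libraries, 1129 and 1250 bp in the EGF libraries, 2467 and 1244 bp in the knockdown libraries and 1236 and 1323 bp in the knockdown libraries with EGF. The ranges of all 4 groups overlapped each other, and the first knockdown library stood highest, far above the other knockdown library. The median peak of the lists measured 1195 to 1312 bp. The authors' fold enrichment of the HoxD peak over the caller's background was 4.66 and 4.50 in control, 4.14 and 3.69 in EGF, 4.60 and 5.07 in knockdown, and 4.32 and 3.89 in knockdown with EGF libraries. Ranked within its own list, that fold stood at a median percentile of 41.5 over the 8 libraries, between 15.5 in the second EGF library and 55.9 in the second knockdown library. The −log10 q-value ran from 1.84 in the second EGF library to 4.79 in the second knockdown library. Only that last peak scored above the median score of all lists pooled, so with peaks above that median alone HoxD was marked in 1 library instead of 8.

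For EGF, which activates the ERK pathway through its receptor, no difference in the length of the HoxD peak could be detected. Over both siRNAs it covered 1234.5 ± 80.01 bp with EGF and 1652 ± 618 bp with vehicle (SD, n = 4 per side; exact two-sided permutation p = 0.371, adjusted p = 1 over 4 windows and 2 contrasts). With 4 libraries on each side no p below 0.0286 can be reached. Per Mb of covered sequence of the library, which takes out differences in total length, the values were 35.1 ± 1.28 and 37.3 ± 11.8 bp (SD, n = 4; exact permutation p = 0.800, adjusted p = 1). The shorter length with EGF rested in large part on the first knockdown library. Without it the difference was -145.8 bp in covered length, against -417.5 bp with all libraries, and 3.22 bp per Mb instead of -2.11. Other libraries moved the covered length the other way, to -599.2 bp without the first control library and -553.5 bp without the second knockdown library.

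Fitted with all regions by limma on log2(covered bp + 200), the HoxD region differed by -0.22 ± 0.33 (SE) with EGF in control siRNA cells and by -0.41 ± 0.33 in knockdown cells. Both missed the threshold (limma adjusted p = 0.764 and 0.489), where 3.95% and 6.62% of 28146 tested regions passed it. The mean EGF difference was -0.31 ± 0.23 (SE, limma adjusted p = 0.374), while 13% of regions passed, 503 of them higher and 3151 lower with EGF. It ranged from -0.53 without the second knockdown library to -0.091 without the first, and passed in neither case. The median of all tested regions was -0.25 in that contrast, and 44.8% of regions had a lower value than HoxD. With quantile normalization the median of all regions moved to 0.04 and HoxD to -0.09. Without the second control library the difference in control siRNA cells turned to 0.087, and without the first knockdown library that in knockdown cells turned to 0.034.

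The fold of the HoxD peak was lower in each of the 4 EGF libraries than in each of the 4 vehicle libraries, at 3.69 to 4.32 against 4.50 to 5.07. The 2 treatments did not overlap. The same was true of 17.5% of the 16607 regions with a peak in all 8 lists, and the opposite order of 6.11%. These folds come from separate peak callings of unknown depth and were not tested. Ranked within its own list, the fold stood at percentiles 15.5 to 35.7 in the EGF libraries and 47.3 to 55.9 in the vehicle libraries, again without overlap. How many regions have that order on the within-list scale was not counted, and the difference was not tested. When the fold was ranked among the same 16607 regions in every library, a comparison chosen after the values were seen, HoxD stood at percentiles 38.4 and 18.1 in control, 20.4 and 5.38 in EGF, 21.2 and 29.5 in knockdown, and 20.9 and 12.5 in knockdown with EGF libraries. On this scale the order was lower in all 4 EGF libraries for 16.9% of regions and higher for 17%, and for HoxD the treatments overlapped, because the second control library stood below the first EGF library. The mean was 14.8 ± 7.38 with EGF and 26.8 ± 9.10 with vehicle (SD, n = 4; exact permutation p = 0.114, adjusted p = 0.457 over 4 comparisons). By limma over these regions the difference was -12.0 ± 5.84 percentile points (SE, adjusted p = 0.121), and 43.7% of regions passed the threshold. Without the second control library HoxD passed as well, at -17.1 points (limma adjusted p = 0.0383), as did 41% of the shared regions.

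**Figure D4:**
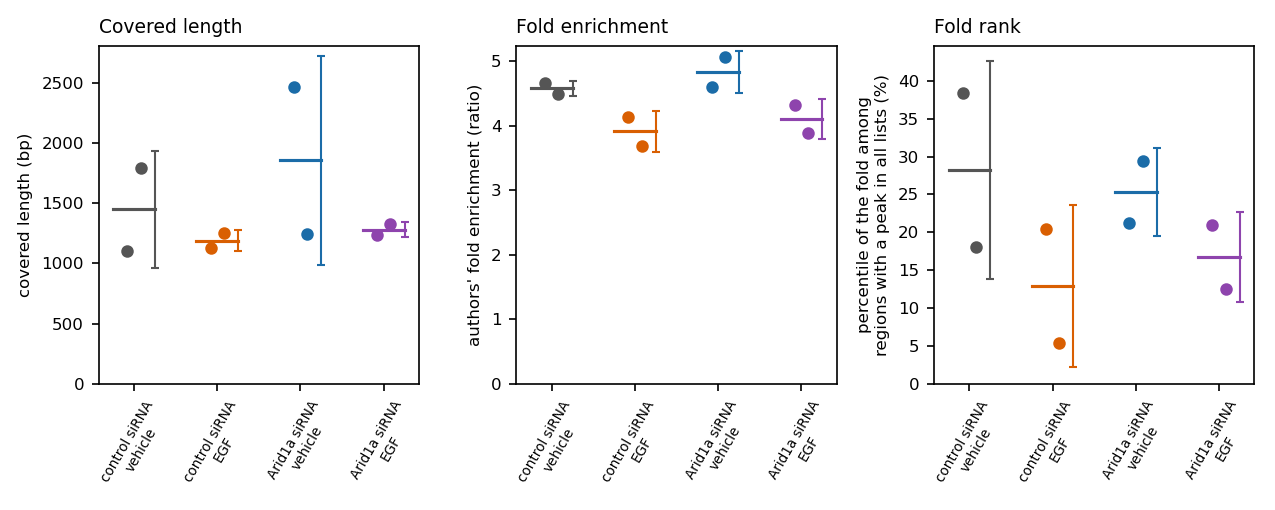
Covered length (bp), the authors' fold enrichment (ratio) and the percentile of that fold among the 16607 regions with a peak in all lists, for the HoxD peak. Points are libraries, horizontal lines are group means and vertical bars are SD (n = 2 per group). Fold separates EGF from vehicle libraries, while covered length and the percentile among these shared regions overlap.

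Arid1a knockdown was set against control siRNA in the same way, with SWI/SNF known as an opponent of Polycomb silencing. No change in the length of the HoxD peak was detectable. It covered 1567.5 ± 601 bp with knockdown and 1319 ± 320 bp with control siRNA (SD, n = 4 per side; exact two-sided permutation p = 0.514, adjusted p = 1). Per Mb of covered sequence the values were 37.7 ± 11.5 and 34.7 ± 2.49 bp (SD, n = 4; exact permutation p = 0.686, adjusted p = 1). The direction of both differences rested on the first knockdown library, and without it they were -51.3 bp and -2.14 bp per Mb.

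By limma the HoxD region differed with knockdown by 0.28 ± 0.33 (SE) without EGF and 0.09 ± 0.33 with EGF (adjusted p = 0.752 and 1), where 1.37% and 0.661% of regions passed. The mean knockdown difference was 0.19 ± 0.23 (SE, limma adjusted p = 0.721), where 0.352% of regions passed. Without the first knockdown library it was -0.034, and the difference without EGF was -0.16. The latter was -0.020 without the first control library. Whether the effect of EGF differed between the siRNAs was tested as an interaction, which gave -0.19 ± 0.47 (SE, limma adjusted p = 0.969). Of all regions 0% passed that test, with 2525 at an unadjusted p under 0.05. The fold percentile among shared regions was 21.0 ± 6.92 with knockdown and 20.6 ± 13.6 with control siRNA (SD, n = 4; exact permutation p = 0.943, adjusted p = 0.943), and limma called 6.47% of the shared regions, without HoxD, in that comparison.

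**Figure D5:**
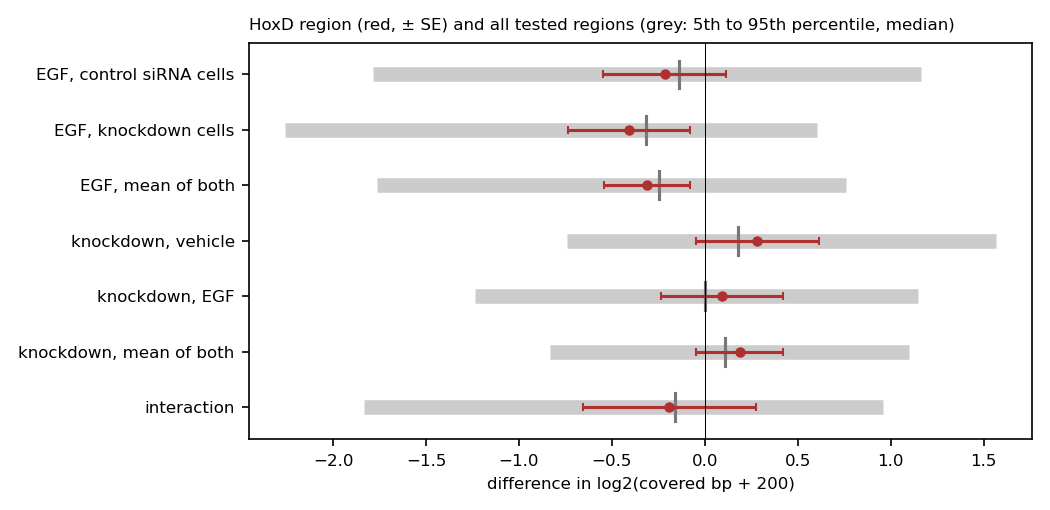
Difference of the HoxD region in log2(covered bp + 200) for 7 contrasts (red points, bars are SE), beside the median (grey tick) and the range from the 5th to the 95th percentile (grey bar) of all 28146 tested regions. The HoxD region lies inside the grey bar in each contrast.

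The HoxA peak was seen with knockdown alone, but in 1 of its 2 libraries. It lay on chromosome 6 from 52132744 to 52133449, 31.9% of the way along the window and so on the side of the anterior gene Hoxa2. It was 706 bp wide, with a fold of 4.08 at the 37.6th percentile of its list, a width at the 23.1st percentile and a −log10 q-value of 2.62. The first knockdown library had no peak there, nor had any library of the other groups. The second knockdown library also had the longest covered sequence of all, 48.7 Mb, and the part of that in this peak was not tested. The mean covered length of the HoxA window was 176.5 ± 353 bp with knockdown and 0 with control siRNA (SD, n = 4; exact permutation p = 1, adjusted p = 1). With a peak in 1 library, the region was left out of the limma fit.

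By the rule of a peak in both libraries of 1 group and neither of the other, 0 of the 2 Hox regions were gained or lost in any pairwise contrast. Over all 33920 regions, EGF in control siRNA cells gained 2% and lost 4.26%, and EGF in knockdown cells gained 0.996% and lost 8.4%. Knockdown without EGF gained 3.04% and lost 0.778%, and knockdown with EGF gained 2.02% and lost 2.34%. With so few regions in the windows, 0 is close to what these shares give. Without the first knockdown library the HoxA region counted as gained with knockdown and as lost with EGF, since 1 library then stood for the group.

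Just beyond the HoxD window lay a region whose values are given because widening the window takes it in. It lay on chromosome 2 from 74632763 to 74634957, 17.8 kb above the window on the Hoxd1 side. It was covered over 1322 and 1598 bp in the knockdown libraries and 709 and 1827 bp in the knockdown libraries with EGF. In control it had no peak in the first library and 716 bp in the second, and the EGF libraries had none. All 4 knockdown libraries thus had a peak, against 1 of 4 control siRNA libraries, with a slight overlap in length. How many of all regions have this pattern over the 8 libraries was not counted. With a peak in both knockdown libraries with EGF and in neither EGF library, the region met the rule for a gain with knockdown under EGF. So did 2.02% of all 33920 regions. With the window widened by 20 kb on each side, which takes this region in, HoxD covered 70.6 ± 15.2 bp per Mb with knockdown and 38.5 ± 9.84 with control siRNA (SD, n = 4; exact permutation p = 0.0286, the smallest possible; adjusted p = 0.229). In bp the values were 2931.5 ± 767 and 1498 ± 675 (SD, n = 4; exact permutation p = 0.0571, adjusted p = 0.457). By limma the difference of that region with knockdown, averaged over both treatments, was 2.36 ± 0.54 (SE) on the log2 scale. It was higher than in 99.9% of the tested regions but missed the threshold (limma adjusted p = 0.107). The second control library was the only control siRNA library with a peak there. Without that library the difference was 2.91, and without the first control library it was 1.81. Leaving out any other library gave differences from 2.07, without the second knockdown library with EGF, to 2.65, without the first. Each of these fits has 1 library left in a group.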

How the data were processed

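H3K27ac chromatin immunoprecipitation libraries of 266-6 cells were analysed, 2 in each of 4 groups. The authors deposited 1 peak list per library, with 9 columns and no header. The submitters' processing notes name build mm9 and the tools MACS2 2.1.1.20160309.0, deepTools 3.0.2, Bowtie2 2.3.4.2 and SAMtools, without role or order. Caller settings, like any input library, were not given in the sources used here. As deposited, the score is 10 times the −log10 q-value, cut to a whole number. Fold enrichment was deposited as a ratio to background as the caller models it. The −log10 p-value and −log10 q-value of each peak were deposited too. These are the authors' values and served to describe or rank peaks. Read depth is unknown, and lists and peaks may be longer in deeper libraries.

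Peaks of all lists that shared 1 bp or more were joined into regions. Covered length per window was compared by exact two-sided permutation of 70 assignments of the libraries, with Benjamini-Hochberg adjustment over 4 windows and 2 contrasts. Covered length per region was fitted with limma 3.58.1, run in R 4.3.3 with trended empirical Bayes moderation, on log2(covered bp + 200), over the 28146 regions called in 2 or more libraries, with a mean for each group, a spread shared by all 8 libraries, adjustment over all regions and a threshold of 0.05. The pseudocount shrinks the differences of short peaks. The same fit was run on percentiles of the fold among 16607 regions with a peak in all lists. The steps were tested on simulated data. Other steps used SciPy 1.17.1, NumPy 2.4.6, pandas 2.3.3 and matplotlib 3.10.9 under Python 3.11.15.

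The windows, genes, tests and rule for named regions were chosen with earlier results of these data known. By that rule every region of a window was counted and the 3 longest per window were to be named, which covers both regions found. Flanks of 200 kb, tiles, gaps, sequences and the fold percentile among shared regions were added after the values were seen. Alternatives changed the window edges, the pseudocount, the filter, the merging and overlap rules and the score needed, used 1000 bp bins, quantile normalization, equally long lists or a replicate block, or left out 1 library at a time. Planned lists of cofactors, Polycomb and Trithorax genes and cell type markers need gene positions in mm9 and were not analysed here. Sequences are from RefSeq's tables of GRCm38.p6, and no position was converted between builds.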

Additional observations from a re-analysis of the deposited data

How the results depend on the processing

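The limits are few regions, 2 libraries per group, unknown depth, and lists that hold only called peaks. HoxB and HoxC had no peak under every alternative run, but none of these could have added one. The nearest regions lay 36.8 kb from the HoxB window and 123 kb from the HoxC window, beyond the widening of 20 kb. Limma on covered length called 0 regions of the windows in any contrast, under every alternative run. It could test only the HoxD region there, and that of HoxA when no filter was set. Limma had no HoxD value with peaks above the pooled median score, where 1 library held a HoxD peak and 0 a HoxA peak. Windows 20 kb wider took the knockdown difference in HoxD to 32.2 bp per Mb (exact permutation p = 0.0286), since they include the next region. Quantile normalization turned the interaction to 0.0090 on the log2 scale. The median percentile of the HoxD fold, 41.5, was 20.7 among regions shared by all lists.

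Leaving out 1 library gave 0 to 1 libraries with a HoxA peak and 0 to 1 regions gained with knockdown without EGF, or lost with EGF in knockdown cells. For HoxD it gave differences of -599.2 to -145.8 bp with EGF and -51.3 to 405.5 bp with knockdown. Per Mb it gave -6.01 to 3.22 bp with EGF and -2.14 to 7.09 bp with knockdown. On the log2 scale of covered length it gave -0.52 to 0.087 for EGF in control siRNA cells, -0.85 to 0.034 for EGF in knockdown cells, -0.53 to -0.091 for mean EGF, -0.16 to 0.73 for knockdown without EGF, -0.034 to 0.41 for mean knockdown and -0.63 to 0.25 for the interaction. The fold percentile among shared regions moved by -17.1 to -6.91 points with EGF (limma adjusted p = 0.0383 without the second control library, where it was -17.1) and -4.63 to 5.53 with knockdown. The causes of these turns were not tested.

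Same-numbered libraries did not deviate together (correlations of -0.0093 to 0.032 over 6 pairs of groups). The number was not taken as a pairing in the main fits, though these values cannot show how the libraries were prepared. With the replicate block the exact permutation p for covered length of HoxD was 0.500 for EGF and 0.611 for knockdown, and limma on covered length again called 0 regions of the windows.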
